A study of Mus musculus with 18 samples.

Results

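Triamcinolone acetonide (TAA) was compared with balanced salt solution (BSS), the solvent of the injected steroids, in the RPE/choroid of the mouse eye 1 month after injection. The arrays were taken by their titles alone: the 3 TAA and the 3 BSS arrays of day 30, which are 6 of the 18 arrays in the series, with all 45101 probe sets. Male C57BL6/J mice, without any engineered allele, received 1 intravitreal injection of 1 μL that held 25 μg of TAA in the TAA group or BSS alone in the BSS group. The growth protocol gives an age of 2 months, and the methods give 6 to 8 weeks at injection. Each array carried RNA of 1 animal, and the methods state that 4 animals per group were injected and that the 3 with the best RNA were hybridized. Groups used beside these were TAA and BSS at day 7 (1 week) and 10 μg of dexamethasone (Dex) at day 30, which shares its 3 BSS arrays with TAA. The tissue was dissected as the eyecup after removal of the retina, with muscle and connective tissue cleaned from the outside, and any neighbouring tissue left behind would be measured with it. For RNA isolation, the methods state that pigmented RPE cells were released and the sclera was taken out. They add that most of the choroid likely remained on the sclera, so its share in the RNA is not known.

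TAA is a synthetic glucocorticoid that is injected as a suspension of crystals, from which the drug dissolves over time. Glucocorticoids bind the glucocorticoid receptor, a transcription factor that enters the nucleus with its ligand, binds response elements in DNA and induces genes such as Fkbp5, Tsc22d3 and Per1, while it restrains many inflammatory genes. The RPE is the pigmented monolayer that recycles retinoids, engulfs shed outer segments of photoreceptors and forms the outer blood-retinal barrier. The choroid beneath it holds fenestrated capillaries, vessels with smooth muscle, fibroblasts, melanocytes and resident macrophages.

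All values below are on the log2 scale and were centred by the authors on the median of all arrays, so that 0 is the middle array of a probe set and no value is a level. A fold change is the TAA mean minus the BSS mean of these values, and for a gene with several probe sets the mean of the probe sets was used unless a probe set is named. For the same reason the labelled tissue could not be checked by level. The 20 genes of the RPE list, Rpe65, Best1 and Ttr among them, had a median log2 fold change of 0.02, and their list mean per array lay between -0.27 and 0.06 in TAA and between -0.37 and 0.08 in BSS.

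Genes that mark rods, surface epithelium and lens spread more widely between the animals, and where these transcripts came from was not tested. The mean of 26 rod photoreceptor genes was 2.08, 2.65 and -1.09 in the TAA arrays and 3.12, -0.44 and 2.98 in the BSS arrays. The mean of 9 keratin and other surface epithelium genes was 1.68, 1.97 and -2.41 in TAA and 0.87, -2.40 and 1.27 in BSS. TAA replicate 3 and BSS replicate 2 were thus low in both, and the groups overlapped. Lens genes were high in BSS replicate 3 alone, where their mean was 2.63, and the other 5 arrays lay between -0.41 and 0.66. Krt12, a keratin of the corneal epithelium, stood at 7.99 in TAA replicate 1, against 0.13 and -0.11 in the other TAA arrays and -0.15, 0.12 and -0.41 in BSS. In bulk tissue fewer cells of a type and less RNA per cell cannot be told apart, and the part of this variation in the results below was not tested beyond the values given beside them.

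**Figure D1:**
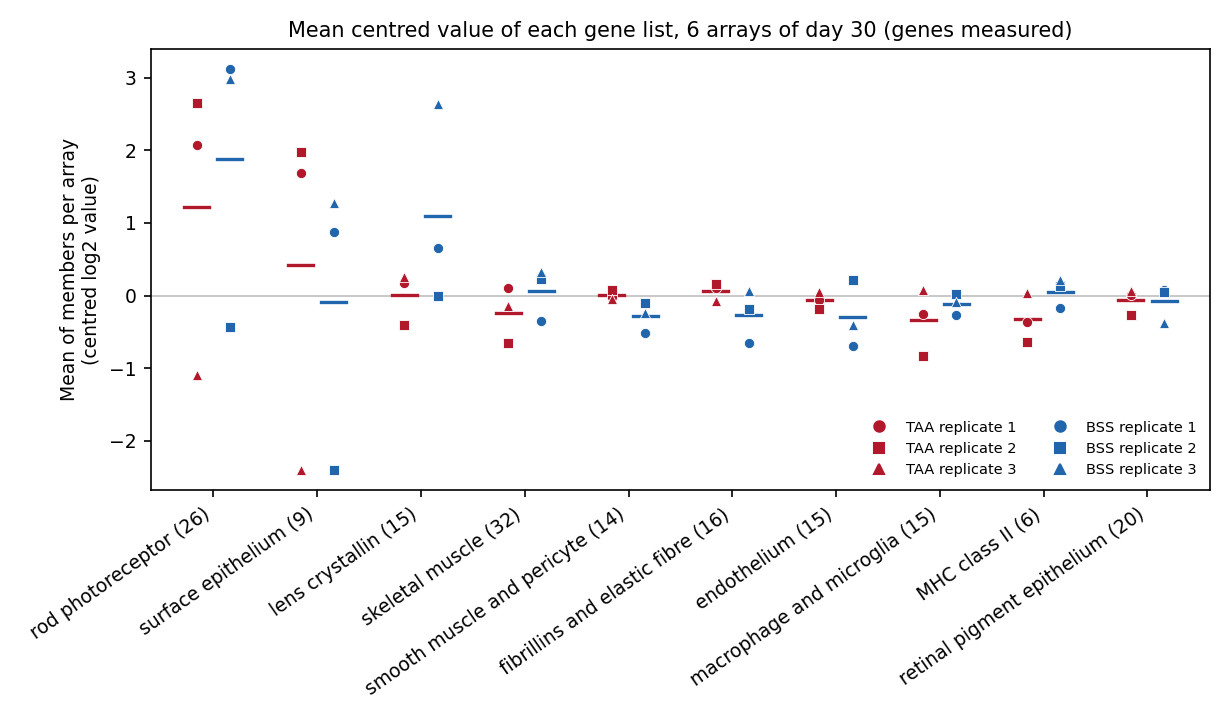
Mean centred log2 value (y axis) of the members of 10 gene lists (x axis, number of genes measured in brackets) in each of the 3 TAA (red) and 3 BSS (blue) arrays of day 30, with a line at the group mean. Rod and surface epithelium means spanned several log2 units within both groups, lens genes stood out in BSS replicate 3, and the RPE list lay between -0.37 and 0.08 in all 6 arrays.

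The comparison asked which genes of the RPE/choroid still differed from the solvent 1 month after TAA. No probe set passed an adjusted p under 0.05 by limma (0.0% of 45101 tested), and the smallest adjusted p was 0.9999. A nominal p, without adjustment, of 0.05 or below was found for 1186 probe sets (2.63%), fewer than the 2255 that this threshold alone would give, with 527 higher (1.17%) and 659 lower (1.46%) after TAA. This nominal p is the threshold meant in what follows. At the thresholds of the study's volcano plot, a nominal p of 0.05 or below together with a difference of 1.5-fold or more, were 79 probe sets (0.175%), of which 30 were higher (0.0665%) and 49 lower (0.109%). The 79 are therefore treated as measured differences, and none of them is called changed. Only part of them is described one by one below. Their log2 fold changes ran up to 1.15 and down to -1.93. The 3 TAA arrays all lay above the BSS arrays in 12 of the 30 and all below in 18 of the 49, where over all probe sets 2.86% and 3.11% were apart in this way. Of the 30 higher probe sets, 2 were array controls for bacterial transcripts added during labelling, out of 64 control probe sets. With 3 arrays against 3, an exact two-sided permutation test cannot give a p below 0.1.

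Single BSS animals carried much of both directions. In 25 of the 30 higher probe sets the lowest BSS array was replicate 1, and in 32 of the 49 lower ones the highest BSS array was replicate 3. These probe sets were chosen by the same values, and the share over all probe sets was not counted. Over all probe sets the SD was 0.39 in BSS replicate 1, 0.25 in replicate 2 and 0.42 in replicate 3. Only Myh2, Grm7 and Myl9 kept both thresholds in each of the 6 fits that left out 1 of the arrays compared. Probe sets of Adamts9, Arpp21 and Fbxl7, and both Egfr probe sets at the thresholds, kept the p threshold alone in all 6.

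Smooth muscle and matrix genes were among those that stood higher after TAA. Myl9, the regulatory light chain of smooth muscle myosin, was 0.24, 0.32 and 0.31 in the TAA arrays and -1.14, -0.50 and -0.11 in the BSS arrays. The TAA arrays lay close together above a BSS group that spread over more than 1 log2 unit. The log2 fold change was 0.87 ± 0.28 (SE, n = 3 per group; 95% interval 0.28 to 1.46; adjusted p = 0.9999 by limma), and without BSS replicate 1 it was 0.59. Smtn, which encodes smoothelin of contractile smooth muscle, was 0.02, 0.33 and 0.23 after TAA and -1.0, -0.24 and -0.10 after BSS, again without overlap. It stood higher by 0.64 ± 0.26, a value that was 0.36 and missed the threshold without BSS replicate 1. The smooth muscle myosin heavy chain Myh11 had overlapping groups, with 0.16, 0.56 and -0.90 in TAA and -2.39, -0.99 and -0.11 in BSS for the probe set at the thresholds. Its log2 fold change was 1.10 ± 0.47, and 0.49 without BSS replicate 1, where it missed the threshold. Mrvi1, a target of cGMP-dependent kinase in smooth muscle, differed by 0.69 ± 0.23, with overlapping arrays.

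Of the 14 measured genes of the smooth muscle and pericyte list, 13 had a positive log2 fold change and 1, desmin (Des), a negative one. Their median was 0.26, against 0.01 over all 18194 genes, of which 54.3% had a positive value. Myh11 (0.61 ± 0.26 over its probe sets) stood higher at the threshold and Des (-0.25 ± 0.10) lower, where 1.33% of all genes were higher and 1.24% lower at that threshold. The smooth muscle actin Acta2 (0.28 ± 0.13) and the light chain kinase Mylk (0.34 ± 0.18) had all 3 TAA arrays above BSS, as had 3.02% of all genes, and missed the threshold. The list mean was -0.03, 0.08 and -0.05 in TAA and -0.51, -0.10 and -0.23 in BSS, so the arrays were apart by a small gap and BSS replicate 1 was the lowest. Without that array the list median was 0.18 and no member was higher at the threshold. The 15 endothelial genes, such as Pecam1, Cdh5 and Emcn, all had positive log2 fold changes with a median of 0.25, none at the threshold. BSS replicate 1 was low and BSS replicate 2 high in this list, with means of -0.69 and 0.22. Without BSS replicate 1 the median was 0.08 with 10 of 15 positive, and without BSS replicate 2 it was 0.48 with 11 of 15 at the threshold. In that last fit 1998 of all 18194 genes were at the threshold, 1138 of them higher, against 467 with all arrays.

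For the genes named by the rule, leaving out those named as list members alone, 41 promoter windows were found. Only 1 of the 41 held a CArG box, the element of smooth muscle promoters that serum response factor binds, and it was that of Myl9. It is printed because Myl9 was the 1 gene higher after TAA that kept both thresholds in all 6 leave-one-out fits. The window runs from 250 bases before to 50 after the RefSeq start on GRCm38.p6, chr2:156775214-156775513, plus strand, 5′ to 3′, with the CArG box, CCTAATAAGG at -161 to -152, in capitals.
Myl9: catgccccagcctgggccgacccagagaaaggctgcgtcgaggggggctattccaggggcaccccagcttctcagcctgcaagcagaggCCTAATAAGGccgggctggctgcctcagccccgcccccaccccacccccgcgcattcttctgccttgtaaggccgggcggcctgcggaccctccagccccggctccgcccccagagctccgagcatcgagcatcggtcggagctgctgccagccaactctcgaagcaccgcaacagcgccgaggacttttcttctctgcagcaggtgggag
A CArG box, searched on both strands after the values were seen, was in 1.63% of all 32851 windows of the table, in 2.44% of these 41 and in 0 of the 10 windows found for the smooth muscle list (10 of 14 genes matched). A match of letters is a description of the sequence and shows no binding.

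Matrix genes stood higher beside the smooth muscle genes. Fbn2 encodes fibrillin-2, a glycoprotein of the microfibrils on which elastic fibres form. One of its probe sets was 0.00, 0.15 and -0.11 in TAA and -0.94, -0.59 and -0.34 in BSS, without overlap, and the other was -0.30, 0.16 and 0.53 in TAA and -1.25, -0.26 and -0.31 in BSS, with overlap. Their log2 fold changes were 0.64 ± 0.23 and 0.73 ± 0.31, with adjusted p = 0.9999 for both by limma. Without BSS replicate 1 they were 0.48 and 0.41 and missed the nominal threshold. Ltbp2, a latent TGF-beta binding protein of microfibrils, had a log2 fold change of 0.99 ± 0.44, and BSS replicate 1 at -1.77 was its lowest array. Fbln1 (0.73 ± 0.30 for the probe set at the thresholds) and the tenascin Tnxb (0.72 ± 0.25) had overlapping groups. All 16 measured genes of the elastic fibre list had positive log2 fold changes with a median of 0.22. Fbn2 and Ltbp2 alone of them were at the threshold. Without BSS replicate 1 the median was 0.10, 13 of 16 were positive and none was at the threshold.

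Other matrix lists leaned the same way with few members at the threshold. Of 10 small leucine-rich proteoglycans, which bind collagen fibrils, 9 were positive with a median of 0.39. Ogn (osteoglycin) was 0.16, 0.22 and 0.21 in TAA and -0.35, -0.37 and 0.10 in BSS, without overlap, a log2 fold change of 0.40 ± 0.14, while Epyc (epiphycan) stood lower by -0.60 ± 0.25. Of 18 collagens 15 were positive with a median of 0.19 and none at the threshold. Adamts9, a protease that cleaves versican, was 0.43, 0.16 and 0.19 in TAA and -0.80, -0.11 and -0.10 in BSS for the probe set at the thresholds. The arrays of this probe set did not overlap, and its log2 fold change of 0.60 ± 0.18 was 0.37 without BSS replicate 1, still at the p threshold. Over the mean of its probe sets Adamts9 missed the threshold, as did every other gene of the matrix protease list.

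Components of the Hedgehog pathway, in which the ligand relieves the restraint of Ptch1 on Smo and the Gli factors then act on their targets, stood higher at the level of Smo and Gli. Smo was 0.15, 0.15 and 0.21 in TAA and -0.37, -0.12 and -0.14 in BSS, without overlap. Its log2 fold change was 0.38 ± 0.11 (95% interval 0.15 to 0.62; adjusted p = 0.9999 by limma over genes), and it kept the threshold in all 6 leave-one-out fits, the weakest being 0.30 without BSS replicate 1. Gli2 (0.34 ± 0.12), Gli3 (0.34 ± 0.14) and the co-receptor Boc (0.33 ± 0.13) were higher at the threshold too. Gli1, itself a target of the pathway, had a log2 fold change of 0.55 ± 0.26 and missed it, and the target and receptor Ptch1 was at 0.04 ± 0.08. Hhip, of the same list, had a probe set higher at the study's thresholds, and over its probe sets it missed the nominal threshold. That probe set was at 0.45 without BSS replicate 1, where it missed the threshold too. The ligand Shh was lower by -0.16 ± 0.07, with TAA arrays at 0.02, 0.07 and -0.05 below BSS arrays at 0.18, 0.13 and 0.19, as 2.55% of all genes had them. In all, 10 of 12 genes were positive, 4 higher and 1 lower at the threshold, with a median of 0.30 that was 0.15 with 1 member at the threshold without BSS replicate 1.

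Wnt inhibitors and signaling ligands were among the remaining higher genes. Wif1, a secreted Wnt inhibitor, was 0.27, 0.64 and 0.62 in TAA and -1.95, -0.38 and 0.40 in BSS, so that BSS replicate 3 lay inside the TAA range. Its log2 fold change of 1.15 ± 0.51 was 0.50 without BSS replicate 1. The Wnt antagonists Dkk2 (0.65 ± 0.28) and Nkd2 (0.72 ± 0.29) also had overlapping arrays, and of 23 Wnt genes 18 were positive, with Wif1 and Dkk2 at the threshold over genes and a median of 0.14. Edn3, the endothelin that acts on melanocyte precursors through Ednrb, had 3 probe sets at the thresholds, with log2 fold changes of 0.60, 0.64 and 0.73, each with overlapping arrays. Aldh1a2, an enzyme that makes retinoic acid, stood higher by 0.71 ± 0.26, while the retinoid X receptor Rxrg, of the same list, stood lower by -0.22 ± 0.10. Of 16 retinoic acid genes 13 were positive with a median of 0.09. Tgfbr2, a receptor of TGF-beta, stood higher by 0.18 ± 0.08 with overlapping arrays, the 1 gene at the threshold of 22 TGF-beta and BMP genes, 19 of them positive with a median of 0.10. Foxc1, a forkhead factor of the anterior eye and its vessels, had all TAA arrays above BSS and stood higher by 0.45 ± 0.20, or 0.15 without BSS replicate 1, where it missed the threshold. Without that array Dkk2 (0.33), Nkd2 (0.53), Aldh1a2 (0.41) and Edn3 probe sets at 0.55 and 0.43 missed the threshold as well.

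Egfr, the receptor of epidermal growth factor, was -0.21, 0.13 and 0.12 in TAA and -1.18, -0.44 and -0.37 in BSS for the probe set with the largest difference. Its log2 fold change there was 0.67 ± 0.19 and 0.62 ± 0.18 for a second probe set, and 0.21 as the mean over all its probe sets, which therefore did not move alike. Erbb4, a receptor of the same family, was -0.13, -0.05 and -0.05 in TAA and 0.08, 0.21 and 0.07 in BSS. It stood lower by -0.20 ± 0.07 without overlap and missed the threshold without BSS replicate 2. Of the 13 genes of this family and its ligands 7 were positive and 6 negative, with a median of 0.00. Ilrun, described in human cells as an inhibitor of inflammatory transcription, was 0.47, 0.17 and 0.92 in TAA and -0.21, -0.31 and 0.05 in BSS. Elobl had the second largest positive log2 fold change of all 79 probe sets (1.15 ± 0.44), with TAA arrays at 0.79, 1.16 and 0.53 and BSS arrays at -0.44, -0.50 and -0.03. B3gnt9 (0.63), Arap2 (0.61) and the Gli3 probe set at the thresholds (0.61) complete the 10 genes whose TAA arrays all stood above BSS.

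**Figure D2:**
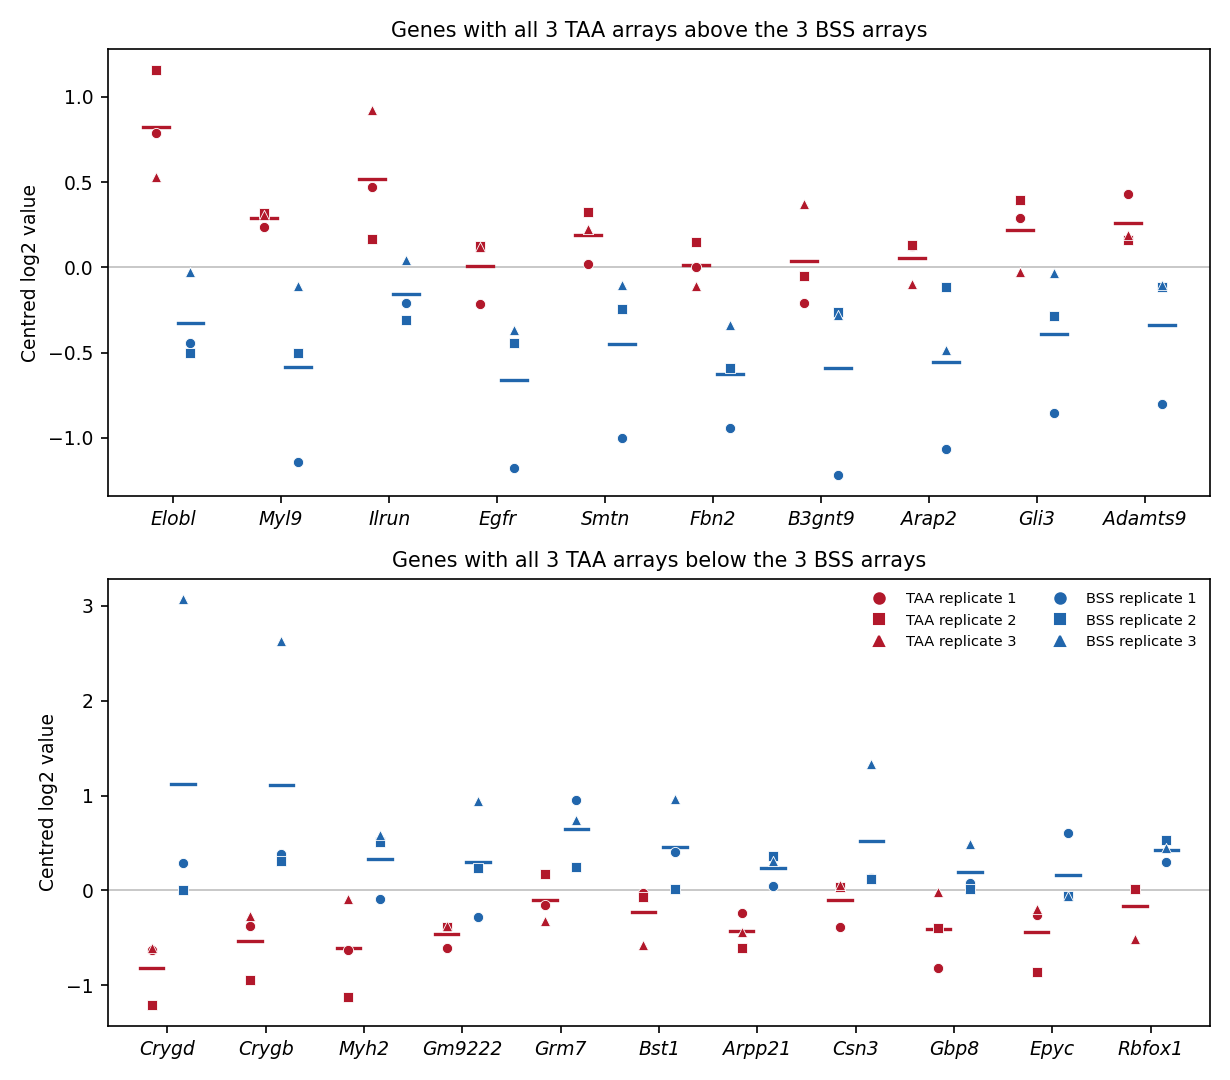
Centred log2 value (y axis) of the 10 genes whose 3 TAA arrays (red) all lay above the 3 BSS arrays (blue) and of the 11 genes whose TAA arrays all lay below, at the study's thresholds, with 1 probe set a gene and a line at each group mean. In 8 of the 10 upper genes BSS replicate 1 is the lowest of the 6 arrays, and for Crygd and Crygb BSS replicate 3, at 3.07 and 2.63, is far above the other 5 arrays.

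The largest negative log2 fold changes were those of lens genes, and they rested on 1 BSS animal. Crygd, a gamma crystallin of lens fibre cells, was -0.63, -1.21 and -0.60 in TAA and 0.29, 0.01 and 3.07 in BSS. Crygb was -0.38, -0.95 and -0.26 in TAA and 0.39, 0.31 and 2.63 in BSS. The groups did not overlap for either, and the third BSS array stood more than 2 log2 units above the others. Log2 fold changes were -1.93 ± 0.83 and -1.64 ± 0.65, and without BSS replicate 3 they were -0.96 and -0.88 and missed the threshold. Crybb1, Grifin, Gja3 and the filament protein Bfsp1 stood lower by -1.40, -1.30, -1.22 and -0.79, and by only -0.42, -0.23, -0.38 and -0.31 without that array. All 15 measured lens genes had negative values with a median of -1.15, and 3 were at the threshold. Without BSS replicate 3 the median was -0.35 with 12 of 15 negative. Without BSS replicate 2, the lens-poor BSS array, 13 of the 15 were at the threshold, where 1998 of all 18194 genes were in either direction.

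Skeletal muscle genes stood lower to a smaller degree, and where these transcripts came from was not tested. Myh2, the heavy chain of fast oxidative fibres, was -0.62, -1.12 and -0.09 in TAA and -0.08, 0.51 and 0.59 in BSS. TAA replicate 3 and BSS replicate 1 all but touched, and the others were apart. Myh2 stood lower by a log2 fold change of -0.95 ± 0.30 (95% interval -1.58 to -0.32; adjusted p = 0.9999 by limma), and of -0.69 without TAA replicate 2, its weakest leave-one-out fit. The regulatory factor Myf6 (-0.76), the kinase Mylk4 (-0.96) and triadin (Trdn, -0.83 for the probe set at the thresholds) had overlapping groups, with TAA replicate 2 the lowest array for each. All 32 muscle genes measured were negative with a median of -0.30, Myh2 alone at the threshold. The list mean was 0.10, -0.65 and -0.15 in TAA and -0.34, 0.23 and 0.32 in BSS. Without TAA replicate 2 the median was -0.08, with 24 of 32 negative.

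Some of the lower probe sets belong to genes known from neurons, grouped here after their values were seen. Grm7, a metabotropic glutamate receptor of presynaptic terminals, was -0.15, 0.17 and -0.32 in TAA and 0.95, 0.25 and 0.75 in BSS for 1 probe set. The TAA arrays all lay below BSS, though TAA replicate 2 and BSS replicate 2 differed by less than 0.1. Its log2 fold change was -0.75 ± 0.24 (95% interval -1.25 to -0.25; adjusted p = 0.9999 by limma) and -0.60 without BSS replicate 1. Its other probe sets had log2 fold changes of 0.06 and 0.06, so that Grm7 had a difference at 1 of its 3 probe sets.

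The homeobox gene Vax2, which patterns the ventral retina, was 0.00, 0.27 and 0.02 in TAA and 1.5, 0.04 and 1.40 in BSS. Its BSS arrays fell into a low replicate 2 and a high pair, in the order of the rod genes, and TAA replicate 2 overlapped them. Vax2 had a log2 fold change of -0.88 ± 0.29. Without BSS replicate 2, in which rod genes were low, it was -1.35 and Vax2, its antisense neighbour Vax2os and Smim17 passed an adjusted p under 0.05 by limma, 3 probe sets in all. With all 18 arrays and the rod list mean of each array as a covariate, a fit added after the data were seen, no probe set passed. The vesicle protein gene Nsg2 (-0.70 ± 0.24) and the postsynaptic scaffold gene Homer1 (-0.67 ± 0.30 for its probe set at the thresholds) had the same order of arrays, with BSS replicates 1 and 3 the highest 2 of the 6.

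Snap25, a synaptic fusion protein, shows how wide that spread was: it stood at 3.12, 3.95 and -0.90 in TAA and 4.64, -0.64 and 5.13 in BSS, a log2 fold change of -0.99 ± 1.67. All 17 genes of synaptic vesicle release and all 26 rod genes were negative, with medians of -0.24 and -0.65, and none was at the threshold. Without TAA replicate 3 the rod median was 0.47, with 21 of 26 positive. Grk1, a photoreceptor gene outside the rod list, had a probe set lower at the study's thresholds. It was at -0.45 without BSS replicate 3, where it missed the threshold. Of 16 ionotropic glutamate receptor genes 10 were negative with a median of -0.03, and Grik1 (-0.40 ± 0.17) alone was at the threshold. Of 13 metabotropic receptors and transporters 9 were negative with a median of -0.15, Grm7 and Homer1 among them at the threshold over genes. Among GABA receptor and synthesis genes 12 of 13 were negative, with a median of -0.14 and none at the threshold. Of 17 amacrine, horizontal and ganglion cell genes 13 were negative with a median of -0.29, which was 0.03 without TAA replicate 3. At the threshold 1 was lower and 1 higher. Lhx1, a homeobox gene of horizontal cells, was lower by -0.35 ± 0.11 and kept the p threshold in all 6 leave-one-out fits. Rbpms, an RNA-binding protein used as a marker of ganglion cells, stood higher by 0.38 ± 0.17, with overlapping arrays, and by 0.15 without BSS replicate 1, where it missed the threshold.

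A probe set of Arpp21 had the smallest p of all probe sets by limma. Over genes, taken as the mean of their probe sets, the smallest p was that of Gzmc instead. Arpp21 encodes a cAMP-regulated, RNA-binding phosphoprotein known from striatal neurons. The values of that Arpp21 probe set were -0.24, -0.60 and -0.44 in TAA and 0.05, 0.36 and 0.31 in BSS, without overlap. Its log2 fold change was -0.67 ± 0.12 (95% interval -0.93 to -0.41; adjusted p = 0.9999 by limma), and it stayed between -0.76 and -0.58 in the 6 leave-one-out fits. Rbfox1, a splicing factor of neurons and muscle, was 0.01, 0.02 and -0.51 in TAA and 0.30, 0.53 and 0.45 in BSS for the probe set at the thresholds. Its log2 fold change there was -0.59 ± 0.22, and without TAA replicate 3 it was -0.42 and missed the threshold. The ectoenzyme gene Bst1 (-0.69), kappa-casein (Csn3, -0.62), the interferon-inducible GTPase gene Gbp8 (-0.61) and the predicted gene Gm9222 (-0.75) complete the genes whose TAA arrays all lay below BSS.

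The promoter of Arpp21 is printed because 1 probe set of this gene had the smallest p. Its window also held a hexamer of the glucocorticoid response element, the part that contacts 1 molecule of the receptor. It lies at chr9:112187717-112188016 of GRCm38.p6, minus strand, from 250 bases before to 50 after the RefSeq start, written 5′ to 3′ in the direction of the gene, with the hexamer, TGTTCT at -17 to -12, in capitals.
Arpp21: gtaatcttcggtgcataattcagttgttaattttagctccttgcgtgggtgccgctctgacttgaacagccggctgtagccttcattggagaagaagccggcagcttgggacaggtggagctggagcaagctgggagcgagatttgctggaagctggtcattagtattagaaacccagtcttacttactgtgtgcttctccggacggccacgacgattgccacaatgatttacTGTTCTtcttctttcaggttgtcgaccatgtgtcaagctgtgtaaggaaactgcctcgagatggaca
The hexamer, AGAACA or TGTTCT with both strands searched, was in 19% of all 32851 windows. It was in 3 of the 41 windows (7.32%) of the named genes without the list members, 26 of which were matched. The 3 were those of Arpp21, Crygd and Rbfox1. The hexamer is thus common in the table, and its presence shows no binding.

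**Figure D3:**
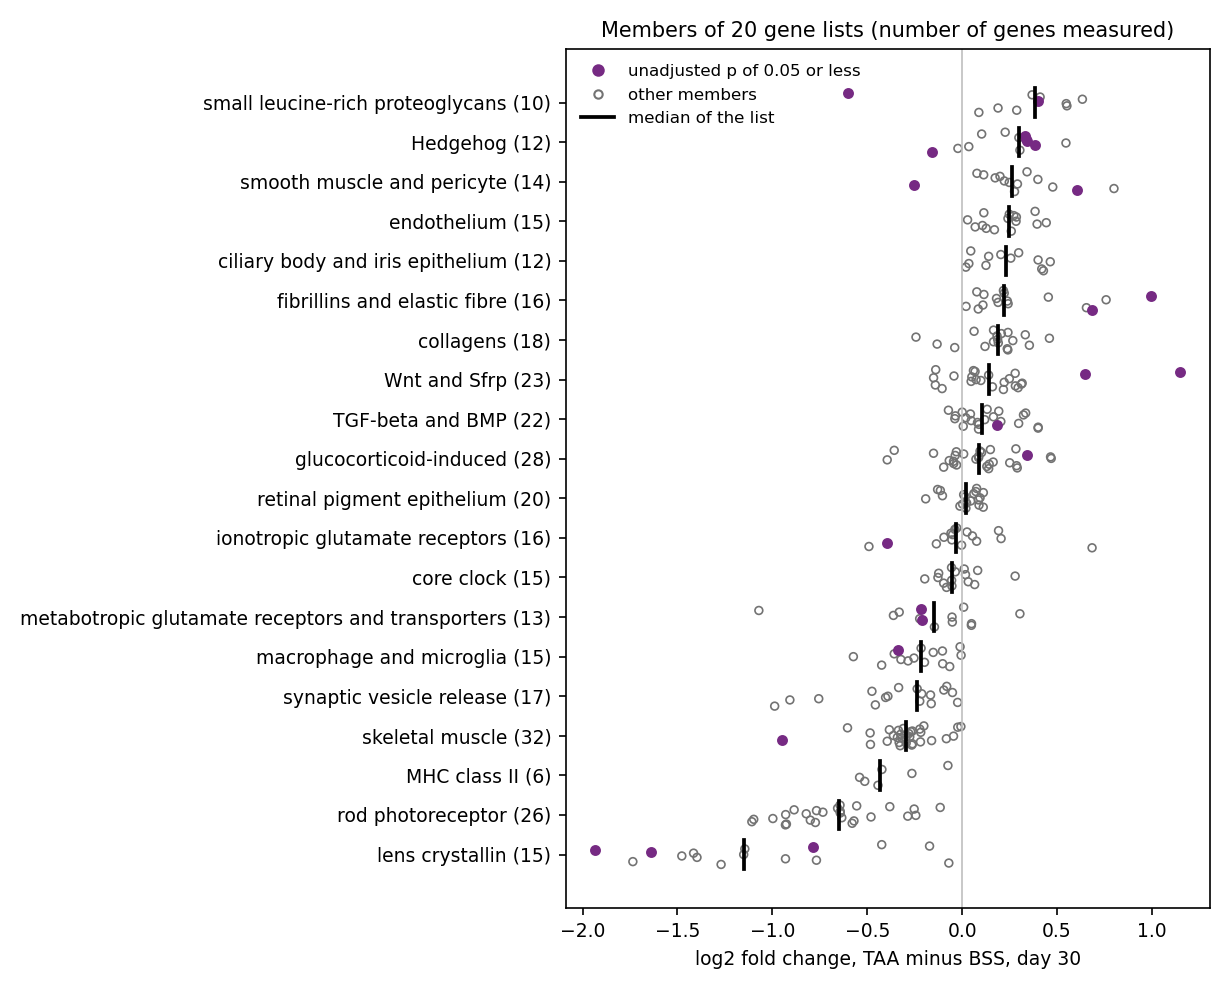
Log2 fold change, TAA minus BSS at day 30 (x axis), of each measured member of 20 gene lists (y axis, number of genes in brackets), filled where the nominal p was at or below 0.05, with a line at the list median. Medians run from 0.39 for the small leucine-rich proteoglycans to -1.15 for the lens genes, and most members of every list are open circles.

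Genes that glucocorticoids induce in many tissues differed little from BSS at 1 month. Fkbp5, a co-chaperone that feeds back on the receptor, was 0.11, 0.08 and 0.00 in TAA and -0.31, -0.17 and -0.22 in BSS. Its arrays did not overlap, and the log2 fold change of 0.29 ± 0.17 (95% interval -0.07 to 0.65) missed the threshold. Tsc22d3, which encodes the leucine zipper protein GILZ, had 0.14 ± 0.13 with overlapping groups, and the metallothioneins Mt1 and Mt2 had -0.05 ± 0.11 and -0.07 ± 0.15. Angptl4, a lipase inhibitor, was the 1 member at the threshold (0.34 ± 0.15), and without BSS replicate 1 it was at 0.20 and missed it. Of the 28 genes 18 were positive and 10 negative, with a median of 0.09. Nr3c1, the receptor itself, had a log2 fold change of 0.08 ± 0.08.

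Sgk1, a kinase that regulates sodium transport and a direct target of the receptor, was 0.08, -0.16 and 0.02 in TAA and 0.13, -0.14 and 0.04 in BSS, a log2 fold change of -0.03 ± 0.10 (95% interval -0.24 to 0.18). Its promoter is printed because it was the 1 window of the glucocorticoid-induced list that held a full glucocorticoid response element, while its values at 1 month overlapped those of BSS. The window is chr10:21993640-21993939 of GRCm38.p6, plus strand, 5′ to 3′, with the element at -189 to -175 in capitals.
Sgk1: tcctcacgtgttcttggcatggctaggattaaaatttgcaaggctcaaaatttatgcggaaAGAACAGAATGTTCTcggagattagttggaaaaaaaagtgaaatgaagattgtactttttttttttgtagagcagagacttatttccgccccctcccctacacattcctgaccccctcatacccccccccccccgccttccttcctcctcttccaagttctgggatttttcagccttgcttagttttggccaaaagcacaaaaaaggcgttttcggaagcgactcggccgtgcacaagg
The element, AGAACA and TGTTCT with any 3 bases between them, was searched on both strands and holds 2 of the hexamers above. It was in 3 of all 32851 windows (0.00913%), in 1 of the 35 windows of the 25 matched genes of this list (2.86%) and in 0 of the 41 windows of the named genes without the list members. The E-box CACGTG, the element that Clock and Arntl bind, was in 7.15% of all windows, in 20% of those of the glucocorticoid-induced list and in 15.8% of those of the core clock list, in Bhlhe41, Cry1 and Per1.

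Core clock genes, which form the feedback loop of Clock and Arntl with Per and Cry and which glucocorticoids can shift through Per1, were also close to BSS at 1 month. Per1 was -0.16, -0.61 and -0.34 in TAA and -0.03, -0.49 and -0.30 in BSS, and Arntl was 0.46, 0.46 and 0.29 in TAA and 0.59, 0.22 and 0.65 in BSS. Both pairs of groups overlapped, with log2 fold changes of -0.10 ± 0.18 and -0.08 ± 0.13. Of 15 clock genes 6 were positive and 9 negative, with a median of -0.05, a range from -0.20 (Cry1) to 0.28 (Nr1d1) and none at the threshold.

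At 1 week some of these genes stood further from BSS. The log2 fold change of Per1 was 0.70 ± 0.18 at 1 week, that of Arntl 0.48 ± 0.13, both at the threshold, and 6 of the 28 glucocorticoid-induced genes were higher at the threshold then, where 2.23% of all genes were. The study had picked Per1, Lcn2 and Cebpd of that list, and Arntl, from the same 1 week arrays. The count is therefore no independent evidence. The effects at 1 month and at 1 week share no array, and their difference was tested in the same fit over all probe sets. No probe set passed an adjusted p under 0.05 (0.0%), and 1.58% were higher and 1.45% lower at 1 month at the nominal threshold by limma. Per1 differed between the times by -0.79 ± 0.25 and Arntl by -0.57 over its probe sets, both at the threshold. Cry1 (-0.53) and Cry2 (-0.36) were lower at the threshold as well, 4 of 15 clock genes, against 1.35% of all genes. That number was between 2 and 5 when any 1 of the 12 arrays was left out. Per1, Arntl and Cry2 are clock genes that the study picked from these same arrays, so this count is no independent evidence either. Ddit4 differed by -0.97, also at the threshold, with -0.39 at 1 month and 0.57 at 1 week.

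Saa3, an acute phase serum amyloid, had the smallest p of that difference. It was -0.66, -0.54 and -0.26 in TAA and -0.56, -0.02 and 0.54 in BSS at 1 month, with overlap. At 1 week it was 2.84, 1.92 and 2.73 in TAA and 0.13, -0.08 and -0.49 in BSS, where the arrays were far apart. The log2 fold change was -0.47 ± 0.30 at 1 month and 2.64 ± 0.30 at 1 week, and the difference of -3.12 ± 0.42 missed the adjusted threshold (adjusted p = 0.082 by limma).

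**Figure D4:**
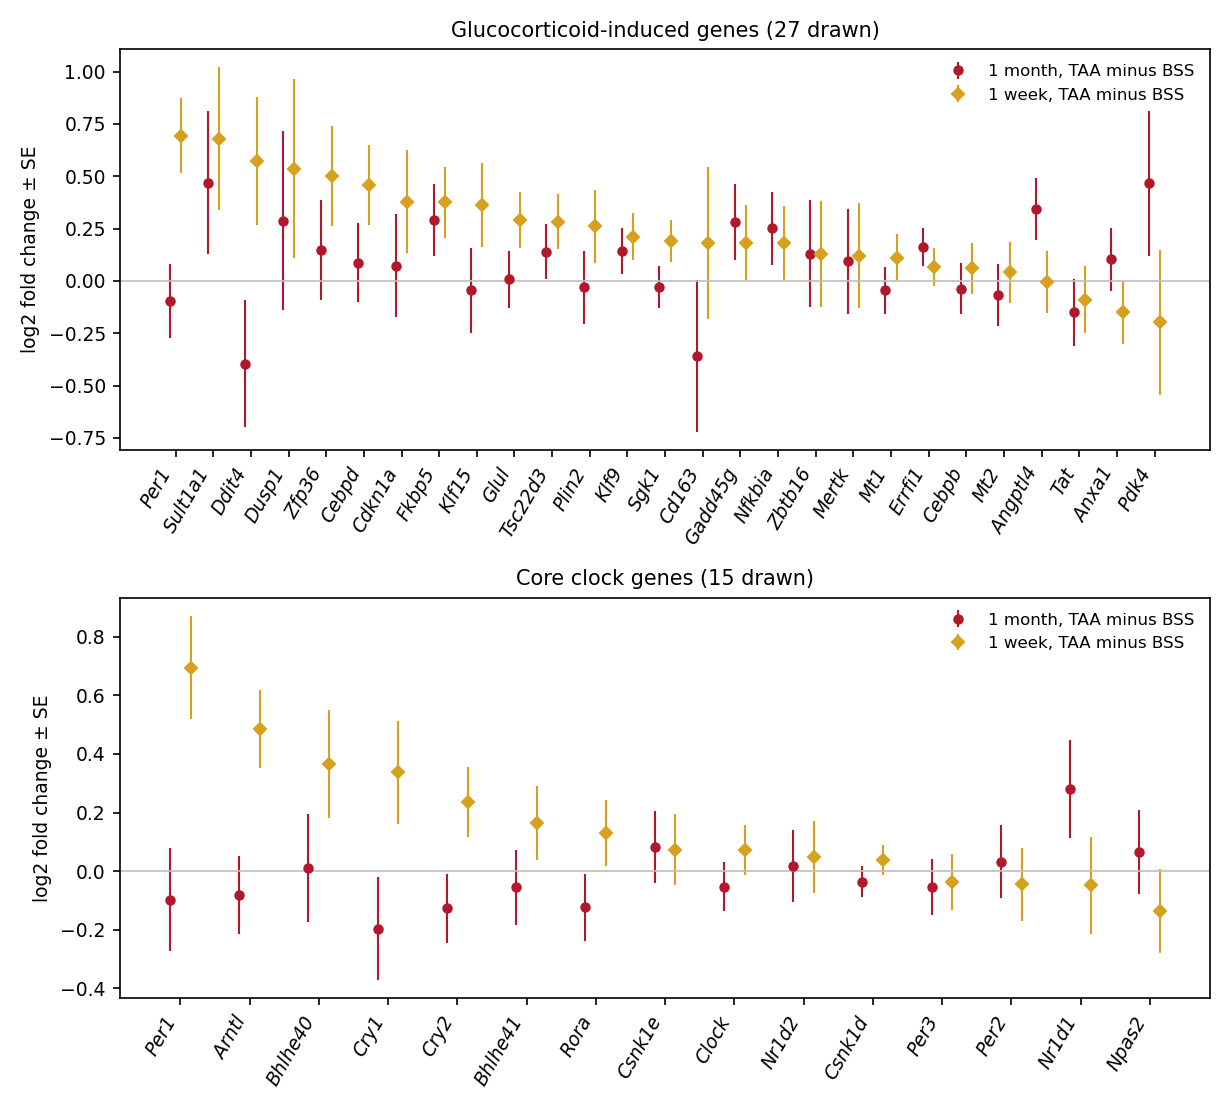
Log2 fold change of TAA against BSS with its SE (y axis) at 1 month (red circles) and at 1 week (yellow diamonds) for 27 glucocorticoid-induced genes (top) and 15 core clock genes (bottom), ordered by the value at 1 week; Lcn2, with an SE of 1.65, is not drawn. Per1 stood at -0.10 at 1 month and 0.70 at 1 week, and the values at 1 month lie around 0 in both panels.

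The probe sets at the thresholds at 1 month had medians near 0 at 1 week in both directions. The 30 higher ones had a median of 0.67 at 1 month and 0.01 at 1 week, and the 49 lower ones had -0.74 at 1 month and -0.03 at 1 week. They were chosen by their values at 1 month, and values chosen for their size tend to lie nearer to 0 in other arrays. The sign was the same at 1 week for 17 of the 30 and 28 of the 49. None of the 30 was higher at 1 week at the nominal threshold, where 2.06% of all probe sets were, and 9 of the 49 were lower, where 1.88% were. For most of them the times were not shown to differ, since the difference itself was at the threshold for 9 of the 30 and 6 of the 49. Over all probe sets 1.58% were higher and 1.45% lower in that difference at the threshold. The difference contains the 1 month values by which these probe sets were chosen, which raises such counts. Wif1 was the widest apart, at 1.15 at 1 month and -1.15 at 1 week, a difference of 2.30 ± 0.74. Tnxb stood at 0.72 at 1 month and -0.58 at 1 week (difference 1.30), Smo at 0.38 at 1 month and -0.02 at 1 week (difference 0.40) and Vax2 at -0.88 at 1 month and 0.12 at 1 week (difference -1.01), all at the nominal threshold of the difference.

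Other lower genes had negative log2 fold changes at both times, without a difference between the times at the threshold. The Arpp21 probe set above had log2 fold changes of -0.67 at 1 month and -0.74 at 1 week (difference 0.07 ± 0.17). Myh2 had -0.95 at 1 month and -1.19 at 1 week (difference 0.24 ± 0.42), and Crygd had -1.93 at 1 month and -1.87 at 1 week (difference -0.07 ± 1.18). Epyc had -0.60 at 1 month and -0.91 at 1 week, and the Rbfox1 probe set above -0.59 at 1 month and -0.75 at 1 week. The muscle list had a median of -0.30 at 1 month and -0.60 at 1 week, with 1 of 32 genes at the threshold at 1 month and 16 of 32 at 1 week, where 2.0% of all genes were lower. The lens list had -1.15 at 1 month and -1.05 at 1 week, with 3 of 15 genes at the threshold at 1 month and 5 of 15 at 1 week.

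**Figure D5:**
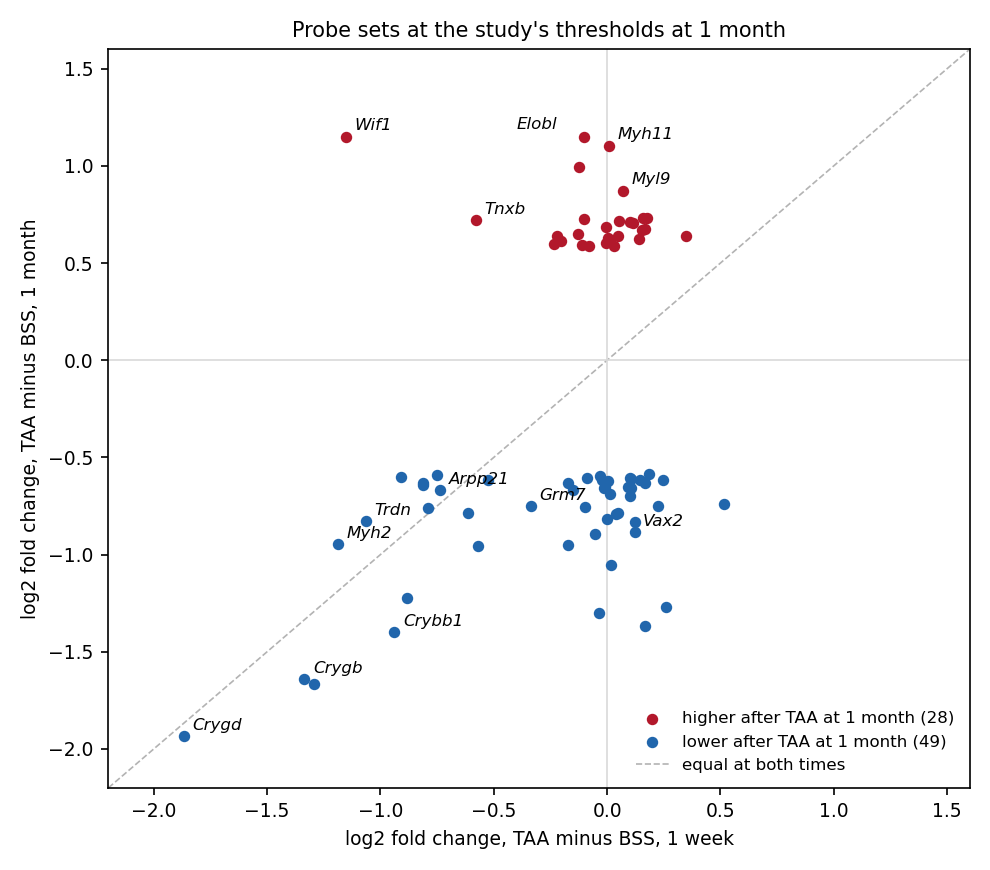
Log2 fold change of TAA against BSS at 1 month (y axis) and at 1 week (x axis) for the probe sets at the study's thresholds at 1 month, 28 higher (red) and 49 lower (blue), without the 2 array controls; the dashed line marks equal values. The higher probe sets lie around 0 at 1 week except Wif1 and Tnxb, which lie below it, and several lower ones, Crygd, Myh2 and Arpp21 among them, lie near the line.

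Macrophage genes stood slightly lower after TAA than after BSS, and 1 TAA animal held most of that difference. All 15 macrophage and microglia genes had negative log2 fold changes with a median of -0.22, but the list mean was -0.25, -0.83 and 0.07 in TAA and -0.27, 0.03 and -0.09 in BSS, so that only TAA replicate 2 lay below the BSS range. Ctss, a lysosomal protease of antigen-presenting cells, was the 1 member at the threshold (-0.34 ± 0.14), and it was at -0.12 without that array. Without it 8 of the 15 were positive and the median was 0.06. The 6 genes of MHC class II, which present antigen to helper T cells, were all negative with a median of -0.43 and none at the threshold. H2-Eb1 was -0.52, -0.66 and -0.03 in TAA and -0.20, 0.15 and 0.46 in BSS, a log2 fold change of -0.54 ± 0.27 with overlapping groups. Il6, a cytokine of the acute phase, stood lower by -0.43 ± 0.20, and by -0.10 without BSS replicate 3, where it missed the threshold. It was the 1 gene at the threshold of 18 acute phase and innate response genes, 14 of which were positive with a median of 0.16.

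TAA and Dex at 1 month are set side by side with their doses, 25 μg of TAA and 10 μg of Dex, which differ, so that the molecule and the dose cannot be told apart, and their effects against BSS share the 3 BSS arrays. Myl9 had log2 fold changes of 0.87 for TAA and 0.89 for Dex, Fbn2 (the probe set without overlap) 0.64 for TAA and 0.69 for Dex, and Egfr 0.67 for TAA and 0.66 for Dex. Grm7 had -0.75 for TAA and -0.97 for Dex, and Crygd -1.93 for TAA and -1.25 for Dex. The direct difference between the steroids involves no BSS array. No probe set passed an adjusted p under 0.05 in it (0.0%), and 0.623% were higher and 1.29% lower after TAA at the nominal threshold by limma. It was -0.02 (95% interval -0.61 to 0.57) for Myl9, -0.05 (-0.54 to 0.44) for Fbn2, 0.01 (-0.40 to 0.41) for Egfr and 0.22 (-0.29 to 0.72) for Grm7, intervals that leave room for differences of either sign. Myh2 was lower after TAA than after Dex by -0.89 and the Arpp21 probe set above by -0.29, both at the nominal threshold.

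Gzmc, granzyme C of cytotoxic lymphocytes, had the smallest p between the steroids. It was -0.34, -0.43 and -0.22 in TAA, 0.40, 0.63 and 0.34 in Dex and 0.01, 0.39 and -0.02 in BSS, so that TAA lay below both other groups without overlap. The difference from Dex was -0.79 ± 0.11 (adjusted p = 0.154 by limma over probe sets and 0.0547 over genes), and that from BSS was -0.46 ± 0.11 (adjusted p = 0.9999 by limma).

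Macrophage genes stood lower after TAA than after Dex. Against Dex, 9 of the 15 (Aif1, Adgre1, Cd68, C1qa, C1qb, C1qc, Lyz2, Ctss and Tyrobp) were lower after TAA at the threshold, where 1.08% of all genes were, and the median difference was -0.46. The list mean was -0.25, -0.83 and 0.07 after TAA and -0.08, 0.35 and 0.01 after Dex. TAA replicate 2 and Dex replicate 2 lay at the ends of that range, and without either of them 2 of the 15 were at the threshold, with a median of -0.19 without TAA replicate 2 and of -0.40 without Dex replicate 2. C1qc, a subunit of the first complement component, had the widest difference of the 9.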

How the data were processed

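Total RNA of the RPE/choroid was hybridized to Affymetrix whole-genome mouse expression arrays, 1 animal per array. For labelling, 0.100 μg of RNA per array was used per the labels, whose kit is another than that of the methods. The authors summarized the cel files with RMA (named in the submitters' processing notes) in GeneSpring, set the baseline of each probe set to its median over all samples and deposited log2 values. The medians of the probe sets over the 18 arrays were within 5e-07 of 0, so levels and the study's filter on raw signal could not be recovered, and all 45101 probe sets were kept. Such values hold no sequencing depth, and precision was limited by the number of arrays, 3 per group. The labels do not say that animals of a group came from separate cages or days, so the spread is that between these animals.

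Probe sets were named from the platform annotation: 34958 had 1 gene symbol, 932 several and 9211 none, 34754 matched RefSeq (GRCm38.p6) by gene identifier, and 18194 genes were formed as means of probe sets with 1 symbol. Means of the 6 groups were fitted over all 18 arrays, so that they shared 1 estimate of the spread, with lmFit, contrasts.fit and eBayes of limma 3.58.1 in R 4.3.3 (12 residual and 3.29 prior degrees of freedom for probe sets, 2.64 prior for genes), with Benjamini-Hochberg adjustment over all features. Values after ± are SE of the fit unless stated. Tables and figures were made with Python 3.11.15 and matplotlib 3.10.9, and the fit was tested on simulated data. Alternatives were the 6 compared arrays alone, the unpaired t-test of the methods, a robust prior, array weights, a replicate block, 2 other scalings, a filter by SD, another choice of probe set per gene, each array left out and, added after the data were seen, the rod list mean as a covariate.

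Gene lists (59, with 852 of 933 entries measured) and members were chosen with earlier results of these data known. Genes that the study picked on these same arrays are in many of the lists, whose direction is therefore no independent evidence. Such lists include the calcium, acute phase, clock, muscle, lens, rod, glucocorticoid-induced, elastic fibre, MHC class II and cholesterol lists. The glutamate receptor, GABA and synaptic vesicle lists hold such genes as well. Genes were named by a rule: those the study names for TAA at 1 month or for its clock and glutamate receptor pathways; up to 12 in each direction with the largest differences at both thresholds whose groups did not overlap (10 and 11 were found); those at both thresholds in all 6 leave-one-out fits; and up to 4 members of each list at the nominal threshold. Other genes, among them Tnxb, Nsg2, Gzmc, Saa3 and Sgk1, were named after their values were seen. Promoter sequences were those of RefSeq.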

Additional observations from a re-analysis of the deposited data

How the results depend on the processing

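The values carry no depth, and each group holds 3 animals. No probe set passed an adjusted p of 0.05 by limma (0, with 1186 at the nominal p), nor by the t-test of the methods (0, with 1121 at the nominal p), nor under any other setting except without BSS replicate 2, where 3 did, so that leave-one-out fits gave 0 to 3. The number of probe sets at both thresholds, 79 with all arrays, was 51 in the fit of the 6 compared arrays. It was 12 by the methods' t-test and 688 with array weights. With 1 array left out it was 109 (without BSS replicate 1, 8 of them higher) to 1114 (without BSS replicate 2, 275 of them higher). Without BSS replicate 3 it was 247 (210 higher), without TAA replicate 2 it was 227, without TAA replicate 3 it was 166 and without TAA replicate 1 it was 122. These totals are not the share of the 79 that stayed. Of the 79 themselves, 42 stayed in the fit of the 6 arrays, 66 with array weights and 30 after quantile normalization. With 1 array left out, 29 (without BSS replicate 1) to 65 (without BSS replicate 2) of them stayed. The number of genes at the nominal p, 467 with all arrays, was 239 in the 6 arrays and 2371 with array weights. It was 271 after quantile normalization (101 higher, against 242 of the 467), 173 among the upper part by SD, and 314 to 1998 with 1 array left out. The cause was not tested, apart from the fewer arrays or genes that some settings hold by construction. No sign among the 79 turned under any alternative run. Of 876 values of 59 named probe sets under the alternatives, 727 kept their sign and side of the threshold, 90 lost the threshold, 4 reached it and 55, of 21 probe sets that were not at the thresholds, turned sign. With the rod list mean these were Snap25 at 0.16, Arntl at 0.038, Per2 at 0.027, Bhlhe40 at -0.0060 and Grina at 0.030 and 0.023. After quantile normalization they were Per2 at 0.25, Arntl at 0.089, Grina at 0.011 and Per3 at -0.052. With array weights they were Per3 at -0.013 and -0.11, Prokr1 at -0.053, Per2 at -0.071 and Grm7 at -0.013, and with array medians set to 0 Clock at -0.00085 and Per3 at -0.0034. With 1 array left out, the probe sets that turned ranged from -2.95 to 0.88 and -2.70 to 0.11 for Snap25, -1.04 to 2.10 for Lcn2, -0.26 to 0.11 for Arntl, -0.11 to 0.14 for Bhlhe40, -0.21 to 0.020 for Csnk1d, -0.21 to 0.024 for Per1 and -0.034 to 0.21 for Prokr1. The ranges were -0.16 to 0.0081, -0.37 to 0.0027 and -0.012 to 0.014 for Clock, -0.30 to 0.13 and -0.046 to 0.055 for Grina, and -0.022 to 0.10 and -0.026 to 0.14 for Grm7. They were -0.26 to 0.26, -0.023 to 0.13 and -0.064 to 0.13 for Per2, and -0.022 to 0.19, -0.29 to 0.16 and -0.012 to 0.086 for Per3.

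Replicate numbers did not pair the animals: same-numbered TAA and BSS arrays deviated with r = 0.177, -0.694 and -0.651. With the replicate number as a block 76 probe sets, 64 of them among the 79, were at both thresholds. In that fit 423 genes were at the nominal p, against 467, and 0 probe sets passed the adjusted p. For the difference between 1 month and 1 week, 1 probe set, that of Saa3, passed an adjusted p of 0.05 after quantile normalization and 0 to 1 with 1 array left out (Saa3 without BSS replicate 1 of day 30 and without TAA replicate 2 of day 7). Over genes Saa3 passed in the same 2 leave-one-out fits and with array weights. For TAA against Dex, 1 probe set, that of Gzmc, passed with the rod list mean as a covariate, an alternative chosen after seeing the data, and 0 to 0 with 1 of the compared arrays left out. It passed without BSS replicate 2 too, an array that enters this contrast through the shared spread alone. Over genes Gzmc passed with a robust prior (adjusted p = 0.0474 by limma), array weights (0.0101), array medians set to 0 (0.0195), the rod list mean (0.0127) and without BSS replicate 2 (0.0051), and missed with all arrays (0.0547). The number of clock genes lower at the threshold in the difference between the times, 4 with all arrays, was 2 after quantile normalization. It was also 2 with array medians set to 0.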

Other observations

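Among the lists not described above, 4 that were chosen after their values were seen had no member at the nominal threshold. All 12 genes of the ciliary body and iris epithelium list had positive log2 fold changes of TAA against BSS at 1 month, with a median of 0.23, and the list mean was 0.27, 0.06 and -0.06 in TAA and -0.20, -0.24 and 0.01 in BSS, with overlap. Without TAA replicate 1 the median was 0.10, with 10 of 12 positive, and without BSS replicate 3 it was 0.26, with 2 genes at the threshold, where 673 of all 18194 genes were. Of 15 genes of cholesterol synthesis and uptake 14 were positive, with a median of 0.10, and without TAA replicate 2 they were 11, with a median of 0.05. Of 19 calcium signaling genes, which include ryanodine receptors of muscle and neurons, 15 were negative with a median of -0.21, against -0.04 without BSS replicate 3 and -0.09 after quantile normalization. The 9 adipocyte genes, which would mark orbital fat, had a median of -0.15 with 6 negative. Htr4, a serotonin receptor, was the 1 gene at the threshold of 18 serotonin and dopamine genes, lower by -0.20 ± 0.09, and 10 of the 18 were positive with a median of 0.01.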
